A study of Mus musculus with 10 samples.

Results

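The genes described here are the plasma membrane and lysosomal transporters of amino acids and neurotransmitters in 6 solute carrier families, Slc1, Slc3, Slc6, Slc7, Slc36 and Slc38. They were chosen by symbol, as every protein-coding gene named with 1 of these family numbers followed by the letter a and a number, which gave 58 of the 56748 gene identifiers counted. The 58 genes lie on 19 chromosomes and divide into 7 Slc1, 2 Slc3, 19 Slc6, 15 Slc7, 4 Slc36 and 11 Slc38 genes. Bulk RNA-seq read counts were compared between 5 libraries of cortex labelled Emx2 KO and 5 labelled WT, all from mouse embryos at E12.5. Emx2 encodes a homeodomain transcription factor of the dorsal telencephalon, the part of the forebrain that forms the cortex. The labels name no allele, strain or sex, and do not say whether a library is a single embryo, and p-values therefore describe library-to-library spread, part of which may be technical.

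Amino acid transporters set how much glutamate, glutamine, branched-chain and cationic amino acid a cell takes up or gives out. The sodium-driven Slc1 and Slc6 proteins also clear glutamate, GABA, glycine and monoamines from the space around neurons. In the embryonic cortex, radial glia, the dividing neural stem cells, carry glutamate transporters, and interneurons and their subpallial progenitors carry GABA transporters. Several Slc7 proteins work only as the light chain of a pair, held at the membrane by the Slc3 heavy chain. Slc36 and Slc38 proteins move amino acids with protons or sodium at the plasma membrane and at the lysosome, where some of them report amino acid supply to the growth kinase complex mTORC1.

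Start regions are shown for a pair of genes that were higher in Emx2 KO cortex and for 1 whose difference varied between library sets. The comparisons below rest on read counts and not on these sequences. Of the 58 genes, 41 had a promoter entry in RefSeq (GRCm38.p6), including 8 of the 11 genes past the test threshold. Slc6a15, Slc7a2 and Slc7a5 had none. Each line gives the 100 bases before the transcription start, 5′ to 3′ on the gene's own strand. Capitals mark CpG dinucleotides in the windows of Slc1a3 (chr15:8710808-8710907, minus strand) and Slc6a11 (chr6:114131141-114131240, plus strand). In the Slc7a11 window (chr3:50443614-50443713, minus strand) they mark matches to TGATGNAA on either strand, the core of the element bound by C/EBP and ATF family factors. The Slc7a11 window was chosen after its expression values and its motif matches had been seen.
Slc1a3: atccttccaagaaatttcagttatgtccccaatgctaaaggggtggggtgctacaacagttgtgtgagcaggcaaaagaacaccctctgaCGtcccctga
Slc6a11: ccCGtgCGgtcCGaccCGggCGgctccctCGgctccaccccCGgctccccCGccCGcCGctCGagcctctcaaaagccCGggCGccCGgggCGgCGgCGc
Slc7a11: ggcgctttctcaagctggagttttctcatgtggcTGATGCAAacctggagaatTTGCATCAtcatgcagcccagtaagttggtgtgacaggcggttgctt
The Slc1a3 window held 1 CpG at 49.0% G+C, whereas the Slc6a11 window held 17 at 84.0% G+C. Over the 250 bases before the start, Slc1a3 held 2 CpG and Slc1a2 held 1, both at 44.8% G+C, and Slc6a11 held 25 at 71.2% G+C. The median over all 32851 promoters of the table was 6 CpG and 52.4% G+C, so the glutamate transporter genes that were higher lay below it and the GABA transporter gene above it. Slc6a17, Slc7a6, Slc7a8, Slc7a10 and Slc38a6, which were lower in Emx2 KO cortex, also lay above it. They held 10 to 34 CpG, as a mean where a gene had several starts. Slc7a11 held both of its TGATGNAA matches within 66 bases of the start, at 66 to 59 and at 47 to 40 bases before it, on opposite strands. In the 250 bases before the start, TGATGNAA occurred in 3.45% of all promoters and in 3 of the 41 transporter genes, Slc6a21, Slc7a7 and Slc7a11. A further 7 motifs were searched there on both strands. The homeodomain core TAATTA was in 4.84% of all promoters and 4 of the 41 genes, CACGTG in 6.02% and 8 genes, and CANNTG, which also covers CACGTG, in 66.22% and 35 genes. GCCNNNGGC was in 13.73% and 8 genes, TGACNNNGC in 10.16% and 7 genes, TATAAA in 12.37% and 5 genes, and the full palindrome bound by nuclear factor I in 0.04% and 0 genes. The percentages count every start, whereas a transporter gene was counted if any of its starts, up to 5, held the motif. Percentages and gene counts are therefore not directly comparable. A match describes letters in the window and is no evidence of binding.

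The library labels were first checked with Emx2. Emx2 (ENSMUSG00000043969, chromosome 19) had 146, 129, 109, 137 and 94.6 CPM (counts per 1e6 TMM-scaled counts) in Emx2 KO cortex, against 207, 179, 175, 182 and 186 CPM in WT cortex. It was lower in Emx2 KO cortex without overlap of the groups (log2 fold change -0.59 ± 0.11 SE, edgeR quasi-likelihood adjusted p = 0.00271), but its transcripts remained abundant. The sources used here do not give the deleted part of the gene, so it is not known whether the counted reads lie in it, and reads of the antisense gene Emx2os, lower too (-0.80), cannot be told apart without the strand setting. Total counts per library ran from 9720840 to 35674113, with 5 large libraries (3 Emx2 KO, 2 WT) and 5 small ones (2 Emx2 KO, 3 WT), and the 58 transporter genes took 0.259% to 0.286% of them. The sample titles end in 1 of 3 codes, 241022 (2 libraries of each genotype), 14922 (2 of each) and 31022 (1 of each). Within a code the genotypes never share a size class, and within a size class they never share a code. Code and size therefore cannot be told apart in a comparison of codes. A genotype difference inside a code also holds library size, and inside a size class it also holds the code. Markers of the labelled tissue were present in both genotypes, with the progenitor gene Sox2 at 368 CPM in Emx2 KO cortex and 255 CPM in WT cortex and the cortical neuron gene Tbr1 at 431 CPM in Emx2 KO cortex and 270.2 CPM in WT cortex.

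Of the 58 transporter genes, 39 passed the filter on low counts and were tested. The other 19 averaged at most 0.347 CPM in either genotype and had at most 17 reads in any library. They were Slc1a7, a glutamate transporter of the retina, the betaine and GABA transporter Slc6a12, the noradrenaline and dopamine transporters Slc6a2 and Slc6a3, the neuronal glycine transporter Slc6a5, the proline transporter Slc6a7, and Slc6a14, Slc6a16, Slc6a18, Slc6a19, Slc6a21, Slc7a9, Slc7a12, Slc7a13, Slc7a15, Slc36a2, Slc36a3, Slc38a8 and Slc38a11. Slc36a3 had no read in any library. Levels of the tested genes spanned a wide range once counts were divided by exon length. The glutamine transporter gene Slc38a2 led in both, with 59.9 ± 4.30 CPM per kb in Emx2 KO cortex and 60.4 ± 1.94 CPM per kb in WT cortex (SD, n = 5 each). Next in WT cortex came Slc38a1 (28.3 ± 1.57 CPM per kb) and Slc7a6 (27.4 ± 0.851), which did not differ beyond their SD. Slc3a2 followed at 25.4 ± 1.56 CPM per kb, then Slc7a5 (22.0 ± 2.18) and Slc1a4 (20.9 ± 1.56), which again lay within 1 SD of each other. In Emx2 KO cortex Slc7a5 moved up to rank 2, at 28.5 ± 2.85 CPM per kb, close to Slc38a1 at 27.9 ± 2.85 CPM per kb. The serotonin transporter gene Slc6a4 was the lowest tested, with 0.226 ± 0.0571 CPM per kb in Emx2 KO and 0.150 ± 0.0805 CPM per kb in WT cortex.

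**Figure D1:**
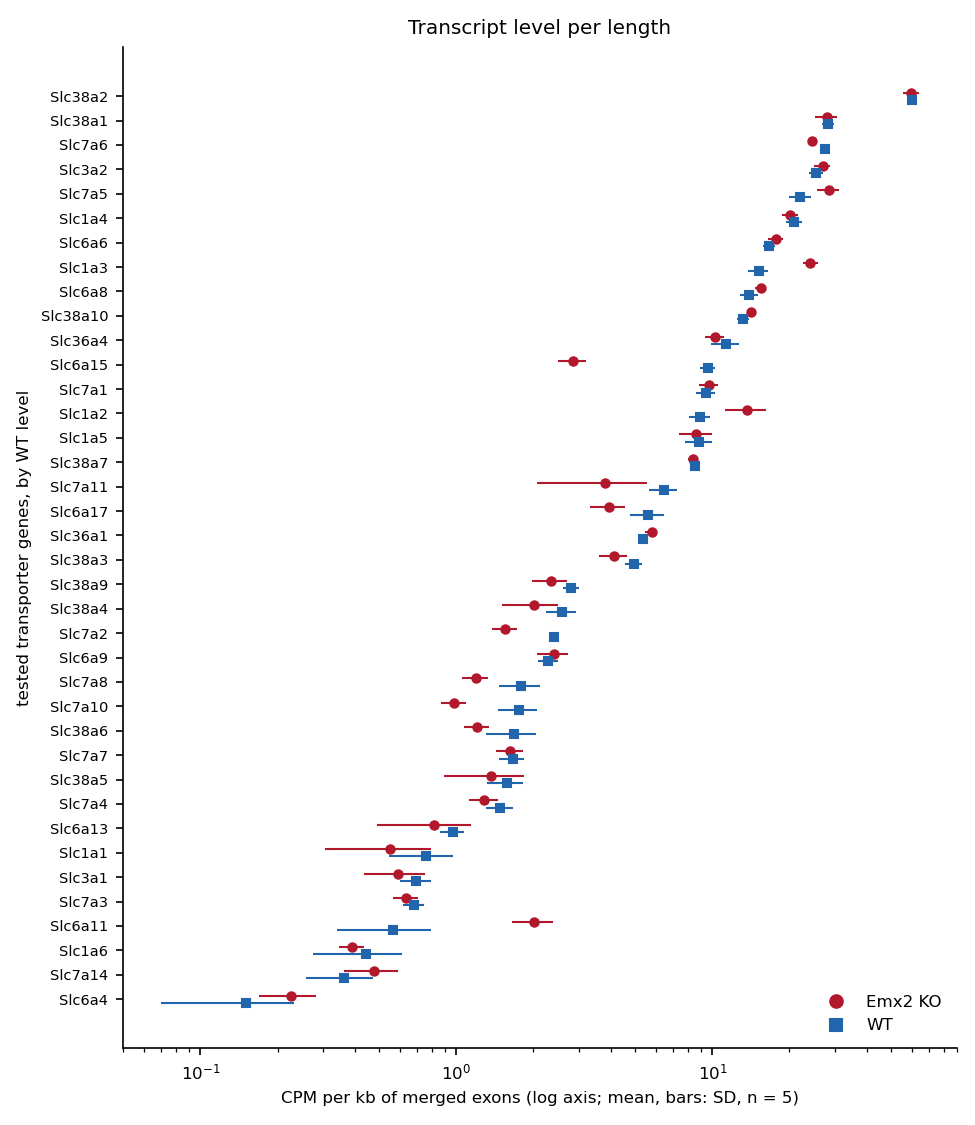
Level of the tested transporter genes as CPM per kb of merged exons on a log axis, with Emx2 KO as red circles and WT as blue squares (mean, bars are SD, n = 5 libraries each), ordered by the WT level. Most pairs lie on top of each other, while Slc6a15 sits at 2.85 in Emx2 KO against 9.59 in WT, and Slc6a11 at 2.01 in Emx2 KO against 0.567 in WT.

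In Emx2 KO cortex, the glial glutamate transporter genes Slc1a2 and Slc1a3, the GABA transporter gene Slc6a11 and the large neutral amino acid transporter gene Slc7a5 were higher than in WT cortex. Lower were the neutral amino acid transporter genes Slc6a15 and Slc6a17, the Slc7 genes Slc7a2, Slc7a6, Slc7a8 and Slc7a10, and Slc38a6. These 11 of 39 tested genes (28.2%) passed an adjusted p of 0.05 in the edgeR quasi-likelihood test, 4 higher and 7 lower. Over all 18163 genes tested, 4039 passed, or 22.2%, with 12.9% higher and 9.33% lower. Among protein-coding genes the share was 26.3%, and among protein-coding genes of at least 10 CPM it was 30.2%. The share of transporter genes past the threshold is therefore near that of other protein-coding genes. By family it was 33.3% of 6 tested Slc1, 33.3% of 9 Slc6, 45.5% of 11 Slc7 and 11.1% of 9 Slc38 genes. It was 0% of 2 Slc3 and 2 Slc36 genes, and shares of so few genes are coarse. The median log2 fold change of the 39 transporter genes was -0.05, against -0.01 over all genes tested. Scaling moved the split over all genes, from 2345 higher beside 1694 lower with TMM to 1899 beside 2245 with upper quartiles and 1786 beside 2464 with no scaling factor besides the total. All 11 genes kept their direction under each scaling, which moved the median over all genes tested from -0.01 to no lower than -0.05.

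**Figure D2:**
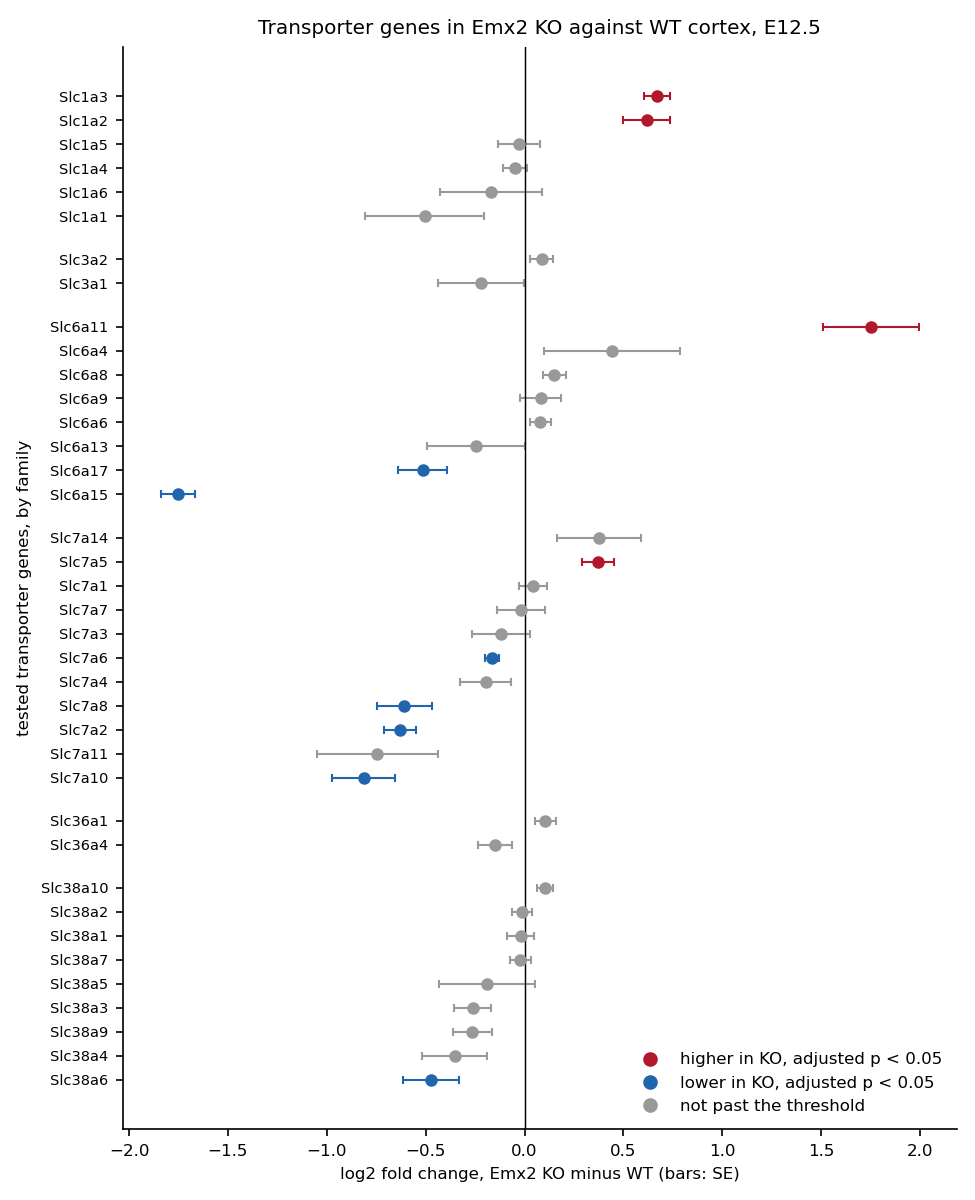
Log2 fold change of the tested transporter genes, Emx2 KO minus WT (bars are SE), grouped by family from Slc1 at the top to Slc38 at the bottom, with genes past an adjusted p of 0.05 in red (higher in Emx2 KO) or blue (lower). Slc6a11 and Slc6a15, both of family Slc6, lie furthest out, at 1.75 and -1.75, and no Slc3 or Slc36 gene is coloured.

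The Slc1 family holds the high-affinity glutamate transporters and the neutral amino acid exchangers. The pair of glutamate transporter genes that glial cells use to take up glutamate were both higher in Emx2 KO cortex, by similar amounts. Slc1a3 (GLAST), the glutamate transporter typical of radial glia, had 200.4, 221, 188, 219 and 203 CPM in Emx2 KO cortex, against 115, 140.5, 142, 129.8 and 120.1 CPM in WT cortex. The lowest Emx2 KO library was well above the highest WT library (log2 fold change 0.67 ± 0.07 SE, edgeR adjusted p = 3.04e-05). Slc1a2 (GLT-1), the main glutamate transporter of mature astrocytes, had 141, 195, 224, 181 and 158 CPM in Emx2 KO cortex, against 120.0, 134, 114, 103 and 115 CPM in WT cortex. The groups did not overlap, but Emx2 KO libraries spread more widely than WT libraries (0.62 ± 0.12, adjusted p = 0.00372). Groups without overlap were found for 16.7% of all genes tested and for 8 of the 39 transporter genes. Exons of Slc1a2 overlap Gm13872 on the other strand, which averaged 0.0231 CPM in Emx2 KO libraries and was at 0 reads in WT libraries.

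None of the 4 other tested Slc1 genes passed. The serine and alanine exchanger gene Slc1a4 had 79.2 ± 5.57 CPM in Emx2 KO cortex and 82.1 ± 6.11 CPM in WT cortex (SD, n = 5 each). The glutamine exchanger gene Slc1a5 had 36.2 ± 5.27 CPM in Emx2 KO cortex and 37.1 ± 4.57 CPM in WT cortex. The neuronal glutamate transporter genes Slc1a1 and Slc1a6 were low, at most 6.26 CPM in either genotype, with log2 fold changes of -0.50 ± 0.30 and -0.17 ± 0.26. Slc1a1 passed in the large libraries alone (-1.04, adjusted p = 0.0162), and its adjusted p over all 24 alternatives ran from 0.0162 to 0.971. The 5 high-affinity glutamate transporter genes summed to between 345 and 421 CPM in Emx2 KO libraries, against 240.0 to 285 CPM in WT libraries. In bulk tissue, more cells that express a gene and more RNA per cell cannot be told apart. Of 9 radial glia markers, 6 were higher and 0 lower in edgeR (1 was lower at an unadjusted p under 0.05 and in DESeq2, and 0 in limma-voom), and their summed level was 3205 to 3650 CPM in Emx2 KO libraries, against 2812 to 2921 CPM in WT libraries. The part of that shift in the Slc1a2 and Slc1a3 differences was not tested.

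**Figure D3:**
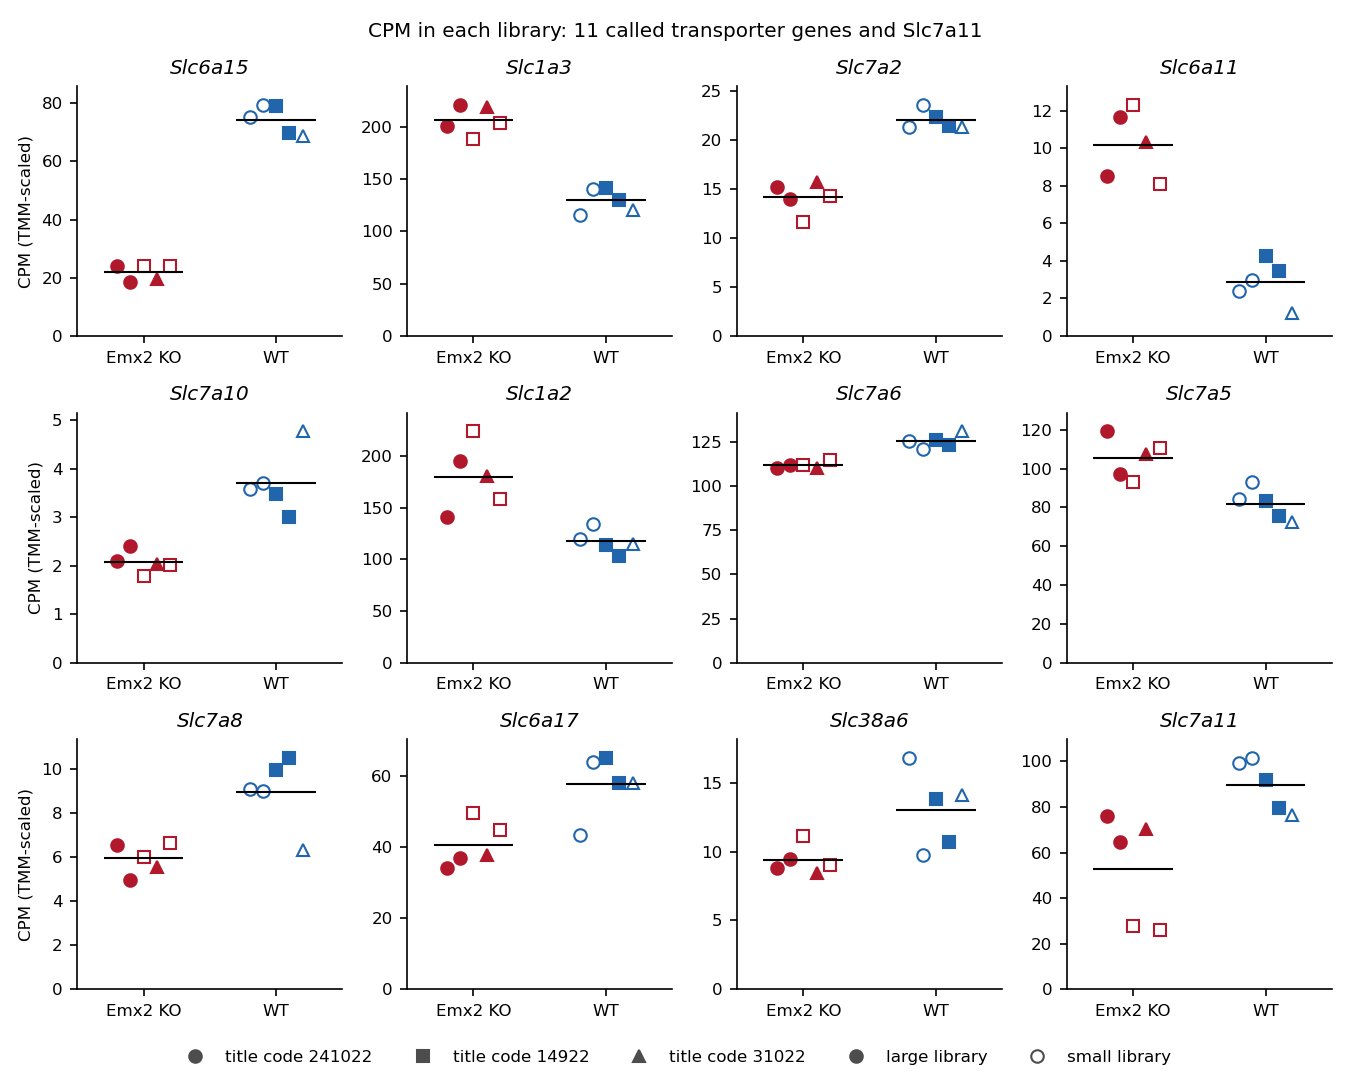
CPM in each library for the 11 transporter genes past the threshold, in order of p, and for Slc7a11, with Emx2 KO on the left in red and WT on the right in blue (lines are means). Marker shape gives the title code and filling the library size class. Groups do not overlap for 7 of the 11 genes, and the 2 low Emx2 KO values of Slc7a11 are the small libraries of code 14922.

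The Slc6 family carries GABA, taurine, creatine, glycine, monoamines and neutral amino acids, and its members split in direction. Of 9 tested, 1 was higher and 2 lower, and the family median was 0.08 on the log2 scale. Slc6a11, the GABA transporter known as GAT-3 in human, had 8.50, 11.6, 12.3, 10.3 and 8.10 CPM in Emx2 KO cortex, against 2.42, 2.98, 4.24, 3.47 and 1.22 CPM in WT cortex. Every Emx2 KO library was above every WT library (1.75 ± 0.24, adjusted p = 0.000362). The smallest count behind these values was 12 reads, in a WT library.

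Markers of GABAergic and subpallial cells moved with Slc6a11. All 10 were tested, 5 were higher in Emx2 KO cortex and 0 lower, among them the subpallial transcription factor genes Gsx2 (log2 fold change 1.86) and Dlx2 (1.99). Their summed CPM was 299, 426, 595, 268 and 133 in Emx2 KO libraries, against 52.5, 245, 95.8, 76.6 and 64.4 in WT libraries. Emx2 KO library 3 and WT library 2 were the highest of their genotype in this sum. Among Emx2 KO libraries, library 3 was the highest and library 5 the lowest in both the sum and Slc6a11. Among WT libraries, library 2 had the highest sum and library 3 the highest Slc6a11 (4.24 CPM). Between genotypes, WT library 2 had 2.98 CPM of Slc6a11 with a marker sum of 245. Emx2 KO library 5 had 8.10 CPM with a marker sum of 133. The part of these cells in the Slc6a11 difference was not tested.

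**Figure D4:**
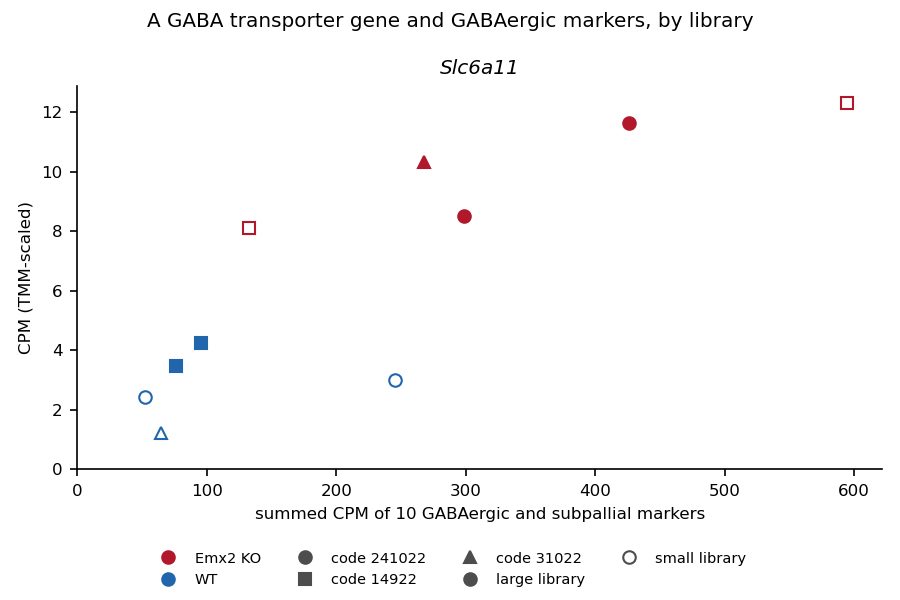
CPM of Slc6a11 in each library against the summed CPM of 10 GABAergic and subpallial markers, Emx2 KO in red and WT in blue, with marker shape for the title code and filling for the size class. All 5 Emx2 KO libraries lie above all 5 WT libraries on the Slc6a11 axis, while the marker sums of the genotypes overlap.

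Slc6a15, a sodium-driven carrier of branched-chain amino acids and proline in neurons, had the largest fall and the smallest p of the 39 genes. It had 24.1, 18.7, 24.2, 19.5 and 24.2 CPM in Emx2 KO cortex, against 75.2, 79.5, 78.9, 69.7 and 68.6 CPM in WT cortex. The highest Emx2 KO library was far below the lowest WT library (-1.75 ± 0.09, adjusted p = 1.69e-07). By level per length, it held rank 21 of the 58 genes in Emx2 KO cortex and rank 12 in WT cortex. Its closest relative in the list, Slc6a17, a neutral amino acid carrier of synaptic vesicles, had 34.1, 36.9, 49.5, 37.7 and 44.9 CPM in Emx2 KO cortex, against 43.6, 64.0, 65.2, 58.0 and 58.0 CPM in WT cortex. WT library 1 lay among the Emx2 KO libraries, and the gene passed with a smaller change (-0.52 ± 0.12, adjusted p = 0.0121). In the large libraries alone Slc6a17 differed by -0.77 (adjusted p = 0.000428) and in the small ones by -0.23 (adjusted p = 0.485).

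The taurine transporter gene Slc6a6 had 149 ± 9.76 CPM in Emx2 KO cortex and 141 ± 7.75 CPM in WT cortex (SD, n = 5 each) and did not pass. The creatine transporter gene Slc6a8 had 80.6 ± 3.88 CPM in Emx2 KO cortex and 72.6 ± 6.004 CPM in WT cortex (adjusted p = 0.0894), and passed only when WT library 3 was left out (0.0191, the lowest of a range up to 0.798). The glial glycine transporter gene Slc6a9 had 12.3 ± 1.70 CPM in Emx2 KO cortex and 11.7 ± 1.03 CPM in WT cortex. Slc6a13, a GABA transporter of meninges and vessels, and the serotonin transporter gene Slc6a4 were below 3 CPM and had log2 fold changes of -0.25 ± 0.25 and 0.44 ± 0.34.

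In the heteromeric transporters, the heavy chain did not pass while its light chains went in both directions. Slc3a2 (4F2hc), the heavy chain shared by most Slc7 light chains, had 95.2 ± 6.91 CPM in Emx2 KO cortex and 89.8 ± 5.49 CPM in WT cortex (0.09 ± 0.06 SE). Slc3a1, the heavy chain typical of kidney, had 1.35 CPM in Emx2 KO cortex and 1.58 CPM in WT cortex (-0.22 ± 0.22). Neither heavy chain gene reached an unadjusted p under 0.05 in edgeR or passed in DESeq2 or limma-voom. Of the 10 light chain genes of the Slc7 family 6 were tested, 1 was higher and 3 lower (66.7%, against 22.2% over all genes tested). Slc7a5 (LAT1), which imports leucine and other large neutral amino acids and belongs to the blood-brain barrier as well as to dividing cells, had 119, 97.0, 93.2, 108 and 111 CPM in Emx2 KO cortex, against 84.1, 93.2, 83.1, 75.7 and 72.4 CPM in WT cortex. The lowest Emx2 KO library and the highest WT library had the same level to 3 digits, and the difference passed (0.37 ± 0.08, adjusted p = 0.0055). None of 12 endothelial markers passed in edgeR (4 were lower at an unadjusted p under 0.05, 1 passed in DESeq2 and 0 in limma-voom), and their summed level was 324 to 514 CPM in Emx2 KO libraries, against 410.0 to 522 CPM in WT libraries. The part of endothelial or dividing cells in the Slc7a5 difference was not tested.

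Slc7a6, which exchanges cationic for neutral amino acids, had the smallest change of the 11 genes with the tightest libraries. It had 110.2, 112, 112, 110.3 and 115 CPM in Emx2 KO cortex, against 126, 121, 126, 123 and 131 CPM in WT cortex. The groups did not overlap (-0.17 ± 0.03, adjusted p = 0.00412). Slc7a8 (LAT2), a relative of Slc7a5, was lower in Emx2 KO cortex at 5.95 ± 0.698 CPM, against 8.97 ± 1.62 CPM in WT cortex (-0.61 ± 0.14, adjusted p = 0.0081), although WT library 5 lay among the Emx2 KO libraries. Slc7a10 (Asc-1), a transporter of glycine and D-serine, had 2.10, 2.42, 1.78, 2.05 and 2.01 CPM in Emx2 KO cortex, against 3.58, 3.70, 3.49, 3.00 and 4.78 CPM in WT cortex. The groups did not overlap (-0.81 ± 0.16, adjusted p = 0.00299). Exons of Slc7a10 overlap the more abundant Lrp3 on the other strand, which had 132 ± 5.99 CPM in Emx2 KO cortex and 111 ± 8.15 CPM in WT cortex and so went the other way (0.25 ± 0.05, adjusted p = 0.00538). Slc7a7, a light chain of epithelia and immune cells, was near 5 CPM in both genotypes (-0.02 ± 0.12).

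Slc7a11 (xCT), the light chain that exchanges glutamate for cystine, did not pass but separated the genotypes without overlap. It had 75.8, 64.7, 27.8, 70.2 and 25.9 CPM in Emx2 KO cortex, against 99.4, 102, 92.0, 79.6 and 76.4 CPM in WT cortex (-0.75 ± 0.31, adjusted p = 0.12). Emx2 KO libraries 3 and 5, the small libraries of title code 14922, were far below the other 3, which lay just under the WT range. Slc7a11 passed with the title code as a block (-0.88, adjusted p = 0.0432) and with the size class as a block (-0.99, adjusted p = 0.0469), and its adjusted p over 24 alternatives ran from 0.00128 to 0.279. The fall was 1.18 log2 units smaller in code 241022 than in code 14922 (interaction test over 8 libraries, edgeR adjusted p = 0.00419). Over all genes 1.53% passed that interaction test, and Slc7a11 was the 1 transporter gene of 39 that did. The difference was -0.51 in code 241022 (adjusted p = 0.0524) and -1.68 in code 14922 (adjusted p = 0.00128). Title code and library size cannot be told apart here.

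Among the 5 cationic amino acid transporter genes of the Slc7 family, 1 was lower. Slc7a2 (CAT2), an arginine and lysine importer, had 15.2, 14.0, 11.7, 15.7 and 14.3 CPM in Emx2 KO cortex, against 21.3, 23.6, 22.3, 21.4 and 21.4 CPM in WT cortex. The WT libraries were close together and all above the Emx2 KO libraries (-0.63 ± 0.08, adjusted p = 0.000188). Its widely expressed relative Slc7a1 (CAT1) carried most of this group's reads, with 112 ± 9.54 CPM in Emx2 KO cortex and 109 ± 9.17 CPM in WT cortex, and did not pass. Slc7a3, Slc7a4 and Slc7a14, at 2.41 to 6.14 CPM in either genotype, had log2 fold changes of -0.12 ± 0.14, -0.20 ± 0.13 and 0.37 ± 0.21.

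The Slc38 family held the transporter gene with the highest level per length, Slc38a2, and 1 gene of the Slc36 and Slc38 families passed. Neither tested Slc36 gene passed in edgeR, DESeq2 or limma-voom, and 0 reached an unadjusted p under 0.05. The lysosomal proton-coupled transporter gene Slc36a1 had 32.5 ± 1.76 CPM in Emx2 KO cortex and 30.2 ± 1.03 CPM in WT cortex, and Slc36a4 had 66.7 ± 5.54 CPM in Emx2 KO cortex and 73.9 ± 9.42 CPM in WT cortex. Of the Slc38 genes 9 were tested, 0 were higher and 1 was lower in edgeR (1 was higher at an unadjusted p under 0.05, and 0 in DESeq2 and limma-voom). The system A glutamine importers Slc38a1 and Slc38a2 lie 44.5 kb apart on chromosome 15. Slc38a1 had 481 ± 49.1 CPM in Emx2 KO cortex and 488 ± 27.1 CPM in WT cortex (-0.02 ± 0.07 SE). Slc38a2 had 529 ± 38.005 CPM in Emx2 KO cortex and 534 ± 17.2 CPM in WT cortex (-0.01 ± 0.05 SE). The system A gene Slc38a4, at 8.53 CPM in Emx2 KO cortex and 11.01 CPM in WT cortex, did not pass (-0.35 ± 0.16).

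Slc38a6, an orphan neutral amino acid carrier of neurons, was the Slc38 gene past the threshold. It had 8.83, 9.48, 11.1, 8.47 and 8.998 CPM in Emx2 KO cortex, against 16.8, 9.73, 13.8, 10.7 and 14.1 CPM in WT cortex. WT libraries 2 and 4 overlapped the Emx2 KO libraries (-0.47 ± 0.14, adjusted p = 0.0323). The call was lost in 7 of the 10 fits that left out 1 library (all but those without Emx2 KO library 3, WT library 2 or WT library 4) and with the title code as a block (adjusted p = 0.0538). Over 24 alternatives its adjusted p ran from 0.0104 to 0.37. The system N glutamine transporter gene Slc38a3 had 21.8 ± 2.72 CPM in Emx2 KO cortex and 26.0 ± 2.02 CPM in WT cortex (-0.26 ± 0.09, adjusted p = 0.0587). It passed in 7 of 24 alternatives, with an adjusted p of 0.029 to 0.601 over all of them. The lysosomal arginine sensor gene Slc38a9 had 39.1 ± 6.10 CPM in Emx2 KO cortex and 46.9 ± 3.21 CPM in WT cortex (-0.26 ± 0.10, adjusted p = 0.0795), and passed in 3 of 24, with a range of 0.0329 to 0.993. The lysosomal glutamine exporter gene Slc38a7 had 34.9 ± 1.54 CPM in Emx2 KO cortex and 35.4 ± 1.34 CPM in WT cortex. Slc38a10 had 91.0 ± 1.47 CPM in Emx2 KO cortex and 84.8 ± 4.37 CPM in WT cortex (0.10 ± 0.04, adjusted p = 0.0987). Slc38a5, a second system N gene, was near 3 CPM in both (-0.19 ± 0.24).

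All 11 genes past the threshold kept their direction inside each title code and inside each size class. For the 7 of them whose groups did not overlap, the direction in a subset largely follows from the full comparison. Contrasts inside a code or a size class are not free of both, since the genotypes differ in size class inside a code and in code inside a size class. Slc6a15 differed by -1.85 in code 241022, by -1.62 in code 14922 and by -1.81 between the single libraries of code 31022. Slc1a3 differed by 0.72, 0.52 and 0.87 in those codes, Slc1a2 by 0.41, 0.81 and 0.65, and Slc6a11 by 1.90, 1.39 and 2.98. In large and in small libraries, Slc1a2 differed by 0.66 (adjusted p = 0.0355) and 0.63 (adjusted p = 0.0902), and Slc6a11 by 1.39 (adjusted p = 0.00126) and 2.18 (adjusted p = 0.0236). Of the Slc7 genes among the 11, Slc7a2 passed in both (edgeR adjusted p = 0.00453 and 0.0308) and Slc7a10 in neither (0.0893 and 0.0789). Slc7a5, Slc7a6 and Slc7a8 passed in large libraries but not in small ones (edgeR adjusted p = 0.232, 0.236 and 0.384). Slc7a8 differed by -0.84 in large and -0.37 in small libraries, and by -0.18 in code 31022. Most markers of choroid plexus and cortical hem, structures at the edge of the cortex, were lower in Emx2 KO cortex. Of 10 choroid plexus markers 8 were lower and 0 higher, with sums of 63.7 to 97.8 CPM in Emx2 KO libraries, against 274 to 326 CPM in WT libraries. Of 9 cortical hem markers 8 were lower and 0 higher, with sums of 98.4 to 211 CPM in Emx2 KO libraries, against 318 to 475 CPM in WT libraries. Of 6 Cajal-Retzius markers 3 were lower and 1 higher, with sums of 162 to 193 CPM in Emx2 KO libraries, against 279 to 308 CPM in WT libraries. Of 8 markers of postmitotic neurons 4 were higher and 0 lower, with sums of 3829 to 4897 CPM in Emx2 KO libraries and 2603 to 3991 CPM in WT libraries. Of 6 intermediate progenitor markers 5 were higher and 0 lower. Of 5 pericyte markers 1 was lower, of 9 meningeal markers 1 was higher and 2 lower, and of 8 microglial and 10 blood markers none passed (1 lower and 1 higher at an unadjusted p under 0.05, and 0 in DESeq2 and limma-voom). The part of these cell types in the transporter differences was not tested.

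Genes that load, make or sense the same amino acids were examined as whole lists. Past the threshold were 66.7% of tested vesicular transporter genes, 50% of transporter genes of other families and 43.8% of glutamate and GABA metabolism. The share was 32.1% for receptors, 25% for the stress response, 17.4% for mTORC1 sensing, 10% for serine and glycine genes and 0% for transporter partners. Over all genes tested it was 22.2%, and over protein-coding genes 26.3%. Among 6 tested vesicular transporter genes, 3 were higher and 1 lower. The vesicular glutamate transporter gene Slc17a8 was lower, at 1.04 ± 0.344 CPM in Emx2 KO cortex against 4.55 ± 0.465 CPM in WT cortex (-2.14 ± 0.23), whereas its relative Slc17a6 was higher, at 117 ± 7.03 CPM in Emx2 KO cortex against 94.8 ± 4.10 CPM in WT cortex (0.31 ± 0.05). The vesicular GABA and glycine transporter gene Slc32a1 (1.94 ± 0.48) and the vesicular monoamine transporter gene Slc18a2 (1.05 ± 0.28) were higher with overlapping groups. Of 16 genes of glutamate and GABA metabolism, 7 were higher and 0 lower. They included Glul, the glutamine synthetase of glia, at 182 ± 7.92 CPM in Emx2 KO cortex and 159 ± 6.63 CPM in WT cortex (0.20 ± 0.04), the aminotransferase gene Got2 (0.28 ± 0.06), the GABA-degrading Abat (0.93 ± 0.24), and Aldh18a1 of proline synthesis (0.15 ± 0.04). Gad1, the GABA-synthesising enzyme gene that is also among the GABAergic markers, was at 1.77 ± 0.52.

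Of 16 tested amino acid and related transporter genes of other families, 5 were higher and 3 lower. Slc16a10, a carrier of aromatic amino acids, was lower at 9.30 ± 2.24 CPM in Emx2 KO cortex, against 23.5 ± 1.88 CPM in WT cortex (-1.32 ± 0.14). The mitochondrial carrier genes Slc25a29 (0.63 ± 0.12) and Slc25a38 (0.35 ± 0.07) were higher. Of 10 tested genes of serine and glycine synthesis and cleavage, the glycine decarboxylase gene Gldc was higher (0.29 ± 0.06) and none was lower. In the amino acid stress response, 12 genes were tested, 3 were higher and 0 lower. Atf4, the transcription factor at its centre, had 209 ± 7.21 CPM in Emx2 KO cortex and 189 ± 6.47 CPM in WT cortex (0.14 ± 0.04), with Atf5 (0.54 ± 0.10) and Ddit4 (0.35 ± 0.08) also higher. The ATF4 target genes Asns, Chac1 and Trib3 were among the 9 that did not pass. Of the 12 genes 11 had a positive log2 fold change, from 0.0009 ± 0.08 for Asns to 0.76 ± 0.40 for Trib3. Over all genes tested, 8873 of 18163 were positive. The share past the threshold was 25%, against 22.2% over all genes tested. Whether the list moved together was not tested.

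Of 23 genes of mTORC1 amino acid sensing, 3 were higher and 1 lower, a share of 17.4%, below the 22.2% over all genes tested. The GTPase gene Rragd was lower, at 82.1 ± 8.73 CPM in Emx2 KO cortex and 123 ± 8.80 CPM in WT cortex (-0.58 ± 0.07). The mTORC1 subunit gene Rptor (0.27 ± 0.04), the arginine sensor relative Castor2 (0.33 ± 0.09) and Rraga (0.14 ± 0.04) were higher. None of 7 tested partners and regulators of transporters, such as Nedd4l, Sgk1 and Bsg, passed the edgeR test, while 1 was lower at an unadjusted p under 0.05 and 1 passed in DESeq2 and in limma-voom. Of 28 tested receptor genes for GABA, glycine and glutamate, 4 were higher and 5 lower. The kainate receptor subunit gene Grik5 (0.34 ± 0.06) was higher, and the GABA receptor subunit gene Gabrg1 (-2.02 ± 0.34) and the kainate receptor subunit gene Grik2 (-0.74 ± 0.14) were lower. These changes are log2 fold changes with SE, all past an adjusted p of 0.05 in edgeR. In the related lists above and the other marker lists given with 0 genes higher or 0 lower, the count was also 0 in that direction at an unadjusted p under 0.05, in DESeq2 and in limma-voom, except where another count is given.

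**Figure D5:**
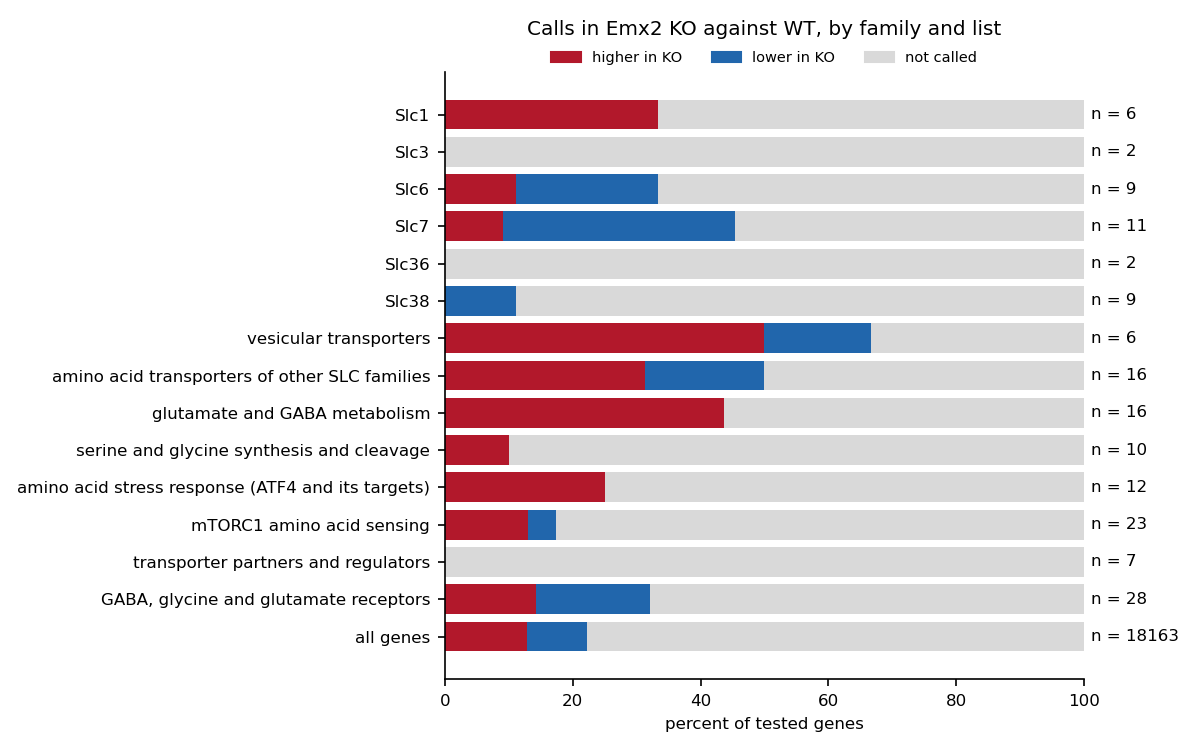
Percent of tested genes past the threshold in each transporter family, in each related list and over all genes, with genes higher in Emx2 KO in red, lower in blue and not past the threshold in grey, and the number tested at the right. The bars of the related lists run from 0 of 7 transporter partners to 4 of 6 vesicular transporter genes, beside 22.2% over all genes.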

How the data were processed

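RNA-seq of 10 mouse E12.5 cortex libraries, 5 Emx2 KO and 5 WT, was used. The deposited values are raw read counts per Ensembl gene, whole numbers with no normalization. The submitters' processing notes name bcl2fastq 2.20, STAR 2.7.8a, featureCounts 1.6.3-p1 and, as builds, GRCm39 and rn6. Strand setting, annotation and handling of shared reads are not given in the sources used here. Gene names came from a name table (52073 of 56748 identifiers matched), and biotypes, exon lengths and overlaps came from GENCODE M21 of GRCm38 by identifier. Printed coordinates and promoter sequences are RefSeq's on GRCm38.p6.

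Genes were filtered with filterByExpr (minimum count 10, by group), scaled by TMM and tested with edgeR 4.0.16 (R 4.3.3), by the quasi-likelihood F test with robust dispersion estimates, two-sided, with a genotype term alone. P-values were adjusted over all 18163 genes by Benjamini-Hochberg and called below 0.05. The robust setting was chosen after a fit without it had been seen, which called 12 transporter genes in place of 11. SE is the log2 fold change divided by the square root of F. CPM uses TMM-scaled totals. The 20 library pairs within a genotype each exceeded sampling noise, at a chi-square of 9.06 to 23.7 per gene, so none was merged. The script was tested on simulated counts. As alternatives, the scaling and the filter were changed, DESeq2 1.42.0 and limma-voom (limma 3.58.1) were run, and fits were made with blocks by title code or size class, on subsets of libraries, with each library left out and at an adjusted p under 0.01.

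The genes and lists described, and the rule for naming genes, were chosen with earlier results of these data known. Every transporter gene past the threshold is named, with all libraries shown for up to 4 per family, as are untested genes and those not past it, with mean CPM from 10 CPM up. Up to 4 genes past the threshold are named per related list. A few genes that these rules name are not reported here and are left out of the figures. Kics2, Samtor, Slc66a1 and 5 aminoacyl-tRNA synthetase genes of the stress list did not match a symbol. Motifs, the Slc7a11 window and Slc7a11's library values were chosen after values were seen. Ratios of the single libraries of code 31022 used a pseudocount of 0.1 CPM.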

Additional observations from a re-analysis of the deposited data

Results flagged for a closer look

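The Emx2 KO minus WT difference of Slc7a11 was 1.18 log2 units less negative in the 4 libraries of title code 241022 than in the 4 of title code 14922 (edgeR interaction test, adjusted p = 0.00419, 8 libraries). In both codes all Emx2 KO libraries were below all WT libraries. Slc7a11 had 75.8 and 64.7 CPM in Emx2 KO against 99.4 and 102 CPM in WT in code 241022, and 27.8 and 25.9 CPM in Emx2 KO against 92.0 and 79.6 CPM in WT in code 14922. In code 14922 the Emx2 KO libraries are small and the WT libraries large, and in code 241022 it is the other way round, so code and library size cannot be told apart. Of 39 transporter genes, 3 had an unadjusted p under 0.05 in this interaction. The share of all genes at that unadjusted cutoff is not given, so this count is not read as a result. After adjustment only Slc7a11 passed, beside 1.53% of all genes. In the 11 genes past the threshold, no library stood apart from the other 4 of its genotype in any of 22 groups (gap over range against a critical value of 0.71).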

How the results depend on the processing

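All 11 transporter genes past the threshold kept their direction in every alternative listed here, 10 of them stayed past it whichever library was left out, and no single-gene call reversed. The alternatives reuse the same libraries. For the 7 genes whose groups did not overlap, the direction largely follows from the full comparison. The number past the threshold was 11 of 39 and stayed between 9 (at an adjusted p under 0.01) and 13 except in subsets of 4 or 5 libraries. It was 5 (2 higher, 3 lower) in small libraries alone, 3 (2 higher, 1 lower) in title code 241022 alone and 7 (2 higher) in title code 14922 alone. Slc1 genes past the threshold numbered 1 in each of these subsets in place of 2, and Slc7 genes 2, 0 and 3 in place of 5. Slc38 genes, 1 in the full comparison, numbered 3 with upper-quartile scaling and with total counts, 2 with a mean of at least 1 CPM, DESeq2 and limma-voom, and 0 with the title code as a block, in large libraries, small libraries or either code alone, and at an adjusted p under 0.01. Leaving out 1 library gave 0 to 2 Slc38 genes and 10 to 12 in all. The extra genes were Slc38a3 and Slc38a9 in the scalings. The cause of these shifts was not tested. The subsets hold fewer libraries, and in them genotype also goes with title code or library size. No paired analysis was possible because the labels give no replicate number that ties single Emx2 KO and WT libraries, and the numbers used here only follow their listing. The title code, which both genotypes share, was fitted as a block, with 11 genes past the threshold (Slc7a11 gained, Slc38a6 lost). Depth limits genes such as Slc6a11 and Slc7a10, whose smallest counts were 12 and 24 reads.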
